A study of Rattus norvegicus with 58 samples.

Results

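Kidneys of rats given the 2 highest doses of 4-methylcyclohexanemethanol were compared with kidneys of rats given lower doses of the same compound. The high-dose group held 6 arrays, 3 at 300 mg/kg and 3 at 500 mg/kg, because the array of biological replicate 3 was left out at each of these doses. The lower-dose group pooled 16 arrays, 4 each at 0.1, 1, 10 and 100 mg/kg. These 22 arrays came out of 58 in the series, 29 of which were from kidney. Dose and organ were read from the labels, while the choice of the comparison and of the 2 arrays left out was made with earlier results of these data known. The 5 kidneys at 0 mg/kg were not in the test and are given beside it as the background.

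All animals were male rats of the Harlan Sprague-Dawley strain, dosed by gavage for 5 days. No other allele, strain or agent separates the groups, and dose is the labelled difference. Each array measured RNA of 1 kidney sample from 1 biological replicate. 4-Methylcyclohexanemethanol is a cyclic primary alcohol used in coal cleaning.

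The kidney filters blood and recovers salts, sugars and amino acids along the tubule. The proximal tubule carries most of that transport and also holds enzymes that oxidise and conjugate foreign compounds, while the thick ascending limb of the loop of Henle recovers salt. In an adult kidney few cells divide, so transcripts of the division machinery come from a small share of cells. A whole-kidney RNA sample mixes all these cells, so that fewer cells of a type and less RNA per cell cannot be told apart.

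Values are log2 signals from RMA, which combines the probes of each set into 1 number, with 1 probe set standing for each gene, and 11194 genes were bright enough to be tested. A difference is the mean of the 6 high-dose arrays minus the mean of the 16 lower-dose arrays on the log2 scale, given with its standard error (SE). A gene was called where limma's adjusted p (Benjamini-Hochberg) was under 0.05. Kidney arrays had medians between 5.334 and 5.376 and correlated with each other at 0.972 to 0.995. The tissue label was checked on marker genes: the mean of 29 proximal tubule markers lay between 11.3 and 11.6 on kidney arrays and between 7.52 and 7.72 on liver arrays. The mean of 19 liver markers lay between 5.93 and 7.49 in kidney and between 13.1 and 13.3 in liver.

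The 2 arrays left out stood apart in markers of fat. The mean of 18 measured adipose markers was 10.2 on replicate 3 of 300 mg/kg and 9.26 on replicate 3 of 500 mg/kg. It lay between 6.16 and 6.29 on the 6 high-dose arrays, at most 6.77 on the lower-dose arrays, and between 6.15 and 6.75 at 0 mg/kg. When the 2 arrays were added to the high-dose group, 155 genes were called, 67 of them among those called without them.

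Of the 11194 genes, 85 were called (0.759%): 62 were lower (0.554%) and 23 were higher (0.205%) in the high-dose kidneys. The lower genes included a group that acts in cell division: Ccnb2, Cdkn3, Kif20a, Hmmr, Cdca3, Cdk1 and Cenpf. Others that fell were Mylk3, the aldo-keto reductase Akr1b8, the glutathione transferase Gstm1 and the anticoagulant zymogen Proc. The higher genes included the organic anion carrier Slc22a24, the secreted nuclease Dnase1, the cytochrome P450 Cyp2e1 and the sterol synthesis enzymes Fdft1 and Tm7sf2. The differences were small: the called genes had a median fold of 1.21, and 11 of them, 2 higher and 9 lower, reached 1.5-fold. Without adjustment 1357 genes (12.1%) had a p under 0.05, 586 higher (5.23%) and 771 lower (6.89%), and the median difference of all genes was -0.0019.

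The number of calls depended on the arrays set against the high doses. With the 5 arrays at 0 mg/kg in place of the 16 lower-dose arrays, limma called 0 genes, and 726 had an unadjusted p under 0.05. That fit held fewer arrays, and taken alone it cannot tell the change of group from the loss of precision. Among these 5 arrays the mean of 10 liver markers reached 9.36, against at most 8.82 on the lower-dose arrays. With the 5 arrays added to the lower-dose group, a fit of more arrays, 29 genes were called, all of them among the 85. With 100 mg/kg left out of the lower-dose group, a fit of fewer arrays, 123 genes were called, 74 of them among the 85. The cause of these changes was not tested. In the high-dose group, replicate 2 of 500 mg/kg weighed most: without it 10 genes were called. Over all alternatives run, limma's adjusted p ranged from 0.000297 to 0.294 for Akr1b8, from 4.75e-05 to 0.244 for Proc and from 0.00031 to 0.521 for Ccnb2. It ranged from 0.00145 to 0.619 for Fdft1, from 0.00065 to 0.618 for Dnase1 and from 0.00169 to 0.801 for Mylk3.

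Several of the genes that fell act in cell division, and they were put together as a group after their calls were known. Cells enter mitosis when cyclin B binds the kinase Cdk1, and kinesins and centromere proteins then move and attach the chromosomes. Ccnb2 encodes cyclin B2. Its level was 6.17, 6.19 and 6.11 on the 300 mg/kg arrays and 5.89, 5.63 and 5.73 on the 500 mg/kg arrays. On the lower-dose arrays it ran from 6.13 to 6.96 with a median of 6.69, and at 0 mg/kg from 6.10 to 6.67. The highest 2 high-dose arrays thus reached into the lower-dose range, and 1 lower-dose array lay at or below the highest high-dose array. The difference was -0.69 (SE 0.11, limma adjusted p = 0.00553).

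Cdk1, the kinase that drives entry into mitosis, was at 6.95, 7.15 and 7.24 at 300 mg/kg and at 6.77, 6.59 and 6.70 at 500 mg/kg. The lower-dose arrays ran from 6.76 to 8.05 with a median of 7.53, and the 0 mg/kg arrays from 7.04 to 7.44. The groups overlapped, with 4 lower-dose arrays at or below the highest high-dose array. Cdk1 fell by 0.56 (SE 0.13, limma adjusted p = 0.0412).

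Kif20a, a mitotic kinesin, ran from 5.37 to 6.03 on the high-dose arrays and from 5.91 to 6.87 on the lower-dose arrays, a difference of -0.64 (SE 0.12, limma adjusted p = 0.0102). Cdkn3, a phosphatase that acts on cyclin-dependent kinases, ran from 5.52 to 6.48 against 6.15 to 7.33, a difference of -0.74 (SE 0.15, adjusted p = 0.019). In both genes 2 lower-dose arrays lay at or below the highest high-dose array. Hmmr, a hyaluronan receptor that also acts at the spindle, fell by 0.60 (SE 0.12, adjusted p = 0.0144). Cdca3, which takes part in triggering mitosis, fell by 0.57 (SE 0.12, adjusted p = 0.019). Cenpf, a protein of the centromere, fell by 0.48 (SE 0.09, adjusted p = 0.0144). Neither Hmmr nor Cenpf was bright enough for a stricter filter at the 60th percentile. Whether these genes passed the filter used only through arrays outside the high-dose group was not examined. If so, their falls would be partly set by the filter.

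Ect2, which sets the plane of cell cleavage, was also called, at -0.46, as were Arhgap11a at -0.45, the spindle protein Tacc3 at -0.35 and the tubulin-binding protein Stmn1 at -0.24. These 4 were picked out after their values were seen. The other probe set of Tacc3 did not show the fall, at 0.06 (limma adjusted p = 0.883). Ccnb2 was called in all 22 fits that each left out 1 array. Kif20a, Cenpf and Hmmr lost their calls only without replicate 2 of 500 mg/kg, at adjusted p of 0.0621, 0.0621 and 0.0814. Cdca3 and Cdkn3 were called in 19 fits and Cdk1 in 11, and without that replicate their adjusted p was 0.105, 0.107 and 0.158. None of these genes was called against 0 mg/kg. Ccnb2 then differed by -0.45 (adjusted p = 0.52).

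**Figure D1:**
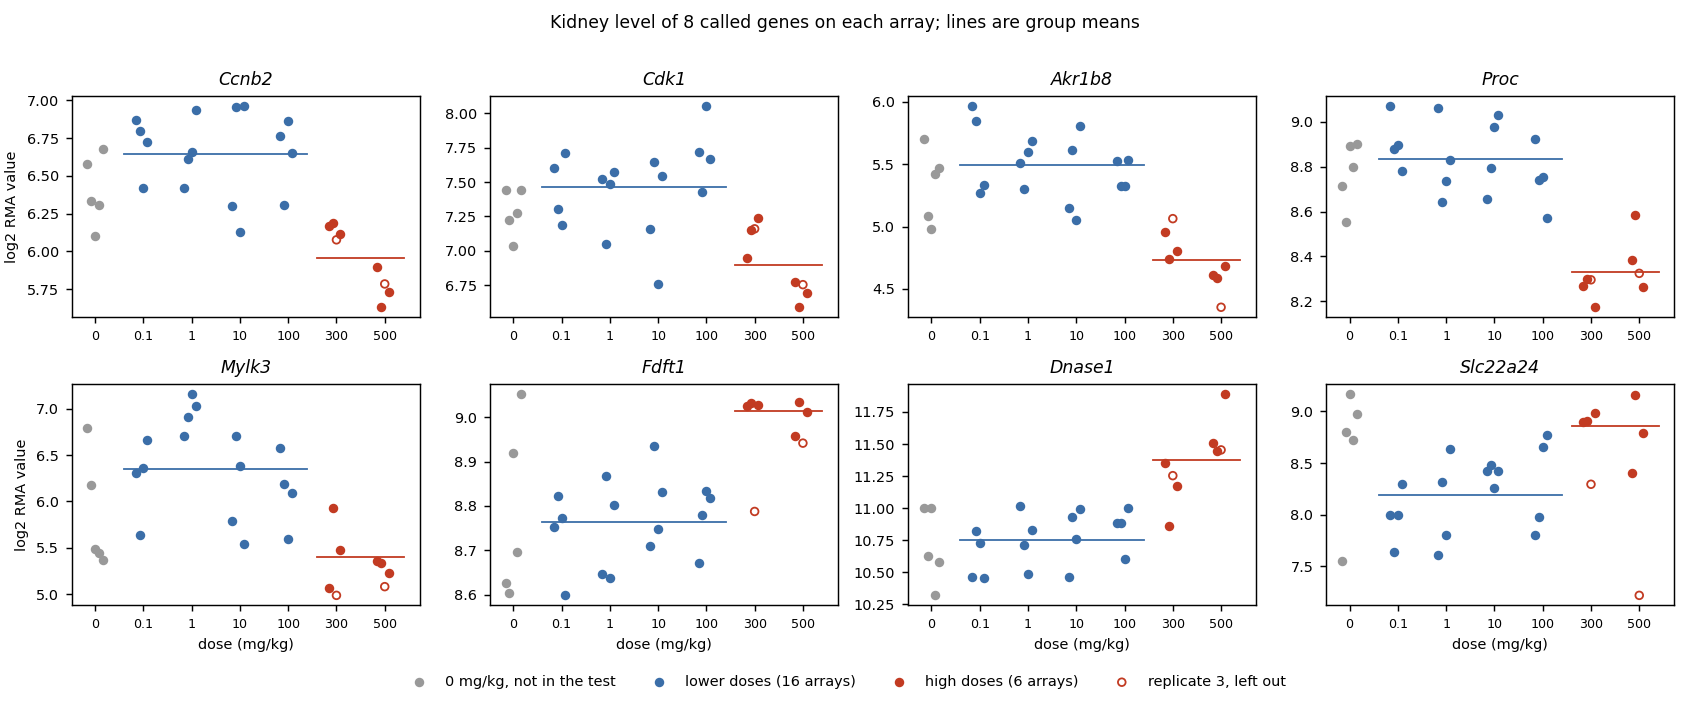
Log2 RMA value (vertical axes) of 8 called genes on each kidney array by dose in mg/kg (horizontal axes); horizontal lines are the means of the 16 lower-dose and 6 high-dose arrays, grey points are 0 mg/kg and open points the replicate 3 arrays left out. Ccnb2 lay between 5.63 and 6.19 on the high-dose arrays and between 6.13 and 6.96 on the lower-dose arrays, while Dnase1 lay higher at 500 mg/kg than at any lower dose.

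The gene list of the cell cycle held 40 genes, of which 35 were measured. In this list 4 genes were called lower and 0 higher, against 0.554% and 0.205% of all genes: Ccnb2, Kif20a, Cdca3 and Cdk1. The difference was below 0 in 33 of the 35, and 21 had an unadjusted p under 0.05, all lower, against 6.89% of all genes. Over all genes tested 5728 of 11194 were below 0. Counts of genes called lower were alike on some other lists, with 3 of 29 proximal tubule markers and 3 of 32 conjugation enzymes. The median difference of the list was -0.24, against -0.0019 for all genes.

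The mean of the Cell cycle list on each array shows how the groups overlapped. It was 6.31, 6.26 and 6.30 at 300 mg/kg and 6.12, 6.05 and 6.15 at 500 mg/kg. The lower-dose arrays ran from 6.14 to 6.75 with a median of 6.48, and the 0 mg/kg arrays from 6.22 to 6.51. The left-out replicate 3 arrays were at 6.23 for 300 mg/kg and 6.04 for 500 mg/kg. All 3 arrays at 500 mg/kg lay below every 0 mg/kg array, whereas the 3 at 300 mg/kg lay within the 0 mg/kg range. Against 0 mg/kg in place of the lower group, the list median was -0.15, and with only 500 mg/kg as the high dose it was -0.34 against the lower group.

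**Figure D2:**
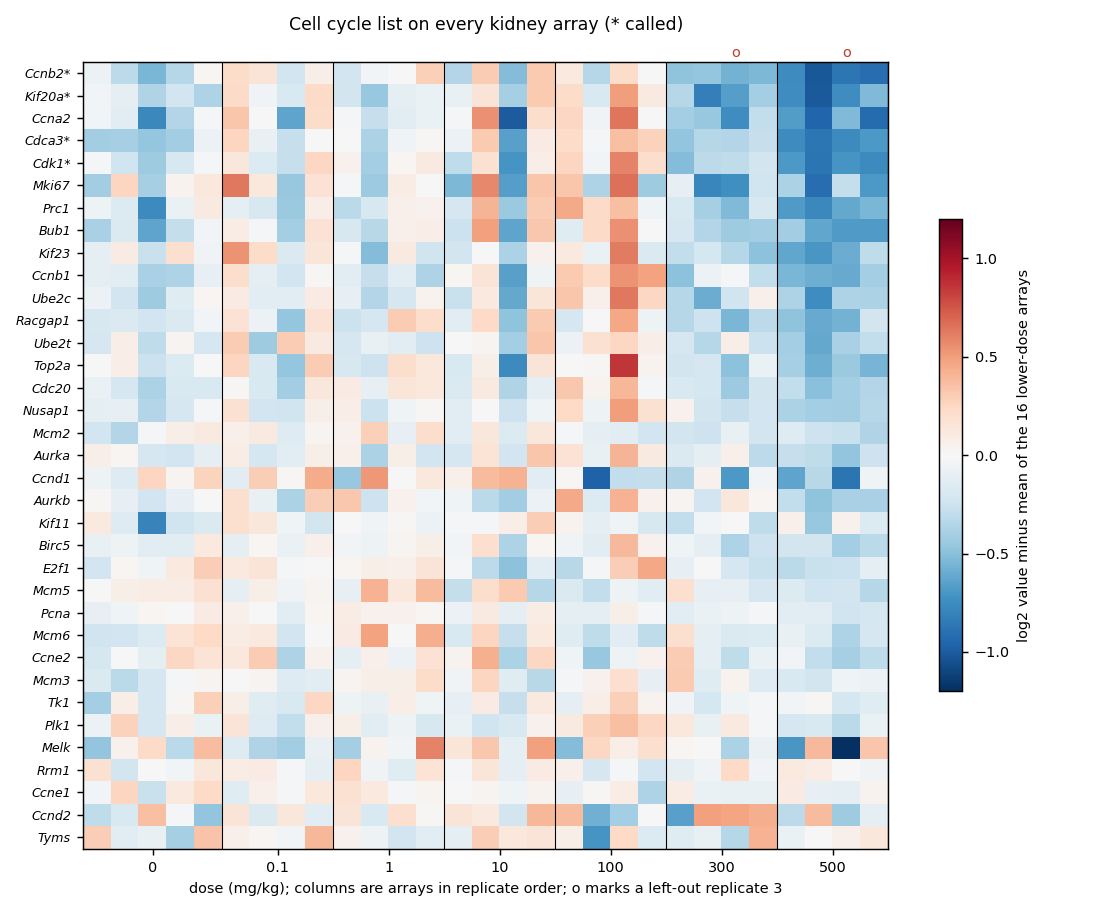
Each row is 1 of the 35 measured cell cycle genes and each column a kidney array, in dose order; colour is the log2 value minus that gene's mean over the 16 lower-dose arrays, with values past 1.2 in either direction shown at the end of the scale. The blue columns gather at 500 mg/kg, and the called genes, marked with an asterisk, include Ccnb2 at the top of the order by difference.

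The promoters of the cell-division genes are shown because the 7 among the largest falls shared a sequence feature. The 7 were chosen for acting in cell division, and the feature was also commoner on the rest of the cell cycle list than among tested genes. Its presence is therefore not separate support for the group. RefSeq's table of promoters on build GRCr8 held an entry for 9351 of the 11194 tested genes and 73 of the 85 called genes. In the 250 bases before each start site, the CCAAT box (CCAAT, both strands) occurred 3 or more times in all 7 of Cdkn3, Ccnb2, Kif20a, Hmmr, Cdca3, Cdk1 and Cenpf. It did so in 2.73% of the 27457 promoters in the table, in 4.19% of the promoters of tested genes and in 8 of 27 (29.6%) on the cell cycle list. That list holds some of the 7, and without them the count was 4 of 23 (17.4%). Of the 54 promoters of genes called lower, 9 had it (16.7%), but these include all 7, and without them the count was 2 of 47 (4.26%). Among genes called higher it was 2 of 19 (10.5%). The cell cycle homology region (TTTGAA, both strands) occurred in 4 of the 7, in 16.1% of all promoters and in 9.91% of those of tested genes. On the cell cycle list it occurred in 9 of 27 (33.3%), and without the 7 in 7 of 23 (30.4%). Both motifs were added after the calls were known, and a match is a description of letters only.

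The 150 bases before the start sites of Ccnb2 (chr8:79981659-79981808, minus strand), Cdk1 (chr20:19265143-19265292, plus strand) and Cenpf (chr13:103760887-103761036, minus strand) on GRCr8 are printed 5′ to 3′ along the gene's strand. Capitals mark a CCAAT box or a TTTGAA on either strand.
Ccnb2: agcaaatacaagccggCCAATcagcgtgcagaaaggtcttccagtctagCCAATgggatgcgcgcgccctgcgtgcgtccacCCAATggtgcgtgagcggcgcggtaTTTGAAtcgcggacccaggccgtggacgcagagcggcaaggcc
Cdk1: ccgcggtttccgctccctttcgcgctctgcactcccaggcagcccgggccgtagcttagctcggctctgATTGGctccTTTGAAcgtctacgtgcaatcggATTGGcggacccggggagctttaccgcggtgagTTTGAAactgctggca
Cenpf: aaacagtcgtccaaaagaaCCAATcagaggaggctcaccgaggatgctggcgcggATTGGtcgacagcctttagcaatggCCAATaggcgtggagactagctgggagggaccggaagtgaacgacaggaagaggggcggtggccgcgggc
The CCAAT boxes of Ccnb2 began 134, 101 and 68 bases before the start, 33 bases apart each time, with TTTGAA at 43. Those of Cdk1 began at 81 and 49 within these 150 bases, with TTTGAA at 72 and 16. The boxes of Cenpf began at 131, 95 and 70. The other motifs searched on both strands were the E-box CACGTG, D-box TTATGNAA, CRE TGACGTCA, glucocorticoid element ACANNNTGT, antioxidant element TGACNNNGC, sterol element CACCCCAC and TATA box TATAAA. Their letters were in 0 of the 7 promoters, and in 5.77%, 3.2%, 1.68%, 5.62%, 10.2%, 2.24% and 13.1% of all promoters in that order. Among promoters of tested genes the shares were 8.47%, 1.56%, 2.82%, 3.33%, 12.7%, 2.16% and 6.38%.

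Among enzymes that handle foreign compounds, Akr1b8, Gstm1, Gsta1 and Cyp2f4 fell, and Cyp2e1 and Papss2 rose. Akr1b8, an aldo-keto reductase that reduces aldehydes, was at 4.96, 4.74 and 4.81 at 300 mg/kg and at 4.61, 4.59 and 4.68 at 500 mg/kg. The lower-dose arrays ran from 5.05 to 5.97 with a median of 5.52, and the 0 mg/kg arrays from 4.98 to 5.70. No lower-dose array overlapped the high-dose arrays. All 6 high-dose values lay below the kidney array medians of 5.334 to 5.376, so the signal was low. Akr1b8 was not bright enough for a stricter filter at the 60th percentile. Whether it passed the filter used only through arrays outside the high-dose group was not examined. A fall in a gene kept only in that way would be partly set by the filter. Akr1b8 fell by 0.76 (SE 0.11, limma adjusted p = 0.000903) and was called in all 22 fits that each left out 1 array, while against 0 mg/kg it differed by -0.60 (adjusted p = 0.294).

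Gstm1, a glutathione transferase, ran from 7.25 to 7.90 on the high-dose arrays and from 7.69 to 8.61 on the lower-dose arrays. The difference was -0.55 (SE 0.11, limma adjusted p = 0.0144), with 3 lower-dose arrays at or below the highest high-dose array. Without replicate 1 or replicate 2 of 500 mg/kg it was no longer called, the larger adjusted p being 0.0646. Gsta1, another glutathione transferase, differed by -0.25 (SE 0.05, adjusted p = 0.0144) and lost its call without replicate 2 of 500 mg/kg, at 0.0785. Both transferases are encoded in families of close relatives, and their probe sets may bind more than 1 member.

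Cyp2e1, which oxidises small alcohols, ran from 11.3 to 11.7 on the high-dose arrays and from 10.7 to 11.5 on the lower-dose arrays, with 10.5 to 11.3 at 0 mg/kg. It was higher by 0.42 (SE 0.10, limma adjusted p = 0.0385), and 3 lower-dose arrays reached the high-dose range. Of the 22 fits that left out 1 array, 10 called it, and the highest adjusted p was 0.0999, without replicate 4 of 300 mg/kg. Papss2, which makes the sulfate donor for conjugation, was higher by 0.25 (SE 0.06, adjusted p = 0.0326), yet against 0 mg/kg its difference was -0.04. Cyp2f4, another cytochrome P450, ran from 3.43 to 4.50 against 4.02 to 5.21 and fell by 0.71 (SE 0.15, adjusted p = 0.0242). Its values in both groups lay below the kidney array medians, and it was not bright enough for the stricter filter. As for Akr1b8, whether Cyp2f4 passed the filter used only through arrays outside the high-dose group was not examined.

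Lists of these pathways are set against the shares of all genes, 0.554% called lower and 0.205% called higher. Of 23 measured Nrf2 targets, genes of the response to electrophiles, 2 were called lower (Akr1b8 and Gstm1) and 0 higher, with a list median of -0.04. Of 32 conjugation enzymes, 3 were called lower (Gsta1, Gstm1 and Acsm2) and 1 higher (Papss2). Of 10 CAR and PXR targets, genes that nuclear receptors for foreign compounds switch on, Gstm1 was called lower. Of 17 genes of alcohol and aldehyde oxidation, Cyp2e1 was called higher, and Aldh1a1 and Aldh2 were at -0.20 and -0.13 without passing the test. AhR targets had 0 called of 7 measured.

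Among genes of sterol synthesis, Fdft1 and Tm7sf2 rose. Fdft1, squalene synthase, makes the first compound committed to sterols. It was at 9.02, 9.03 and 9.03 at 300 mg/kg and at 8.96, 9.03 and 9.01 at 500 mg/kg. The lower-dose arrays ran from 8.60 to 8.93 with a median of 8.78, and the 0 mg/kg arrays from 8.60 to 9.05. The high-dose and lower-dose arrays did not overlap, but the highest 0 mg/kg array lay above all 6. Fdft1 was higher by 0.25 (SE 0.04, limma adjusted p = 0.00553) and was called in all 22 fits that left out 1 array. Against 0 mg/kg it differed by 0.24 (adjusted p = 0.619).

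Tm7sf2, a sterol reductase, ran from 7.87 to 8.40 on the high-dose arrays and from 7.54 to 8.11 on the lower-dose arrays, a difference of 0.31 (SE 0.08, limma adjusted p = 0.0491). It was called in 4 of the 22 fits that left out 1 array, and its adjusted p reached 0.214 without replicate 2 of 500 mg/kg. Insig1, which holds back sterol synthesis, was at 0.24 without passing the test (adjusted p = 0.0949). Of 20 measured genes of cholesterol synthesis and uptake, these 2 were called higher and 0 lower, against 0.205% and 0.554% of all genes. Of the 20, 16 were above 0 and 9 had an unadjusted p under 0.05, all higher, against 5.23% of all genes. The list median was 0.12.

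Among genes of fatty acid handling, Acsl1, Cyp4a3, Amacr and Lpcat3 rose and Cpt1a fell. Acsl1, which couples fatty acids to coenzyme A, was at 10.16, 10.13 and 10.29 at 300 mg/kg and 10.36, 10.24 and 10.12 at 500 mg/kg, against 9.82 to 10.09 on the lower-dose arrays. The groups did not overlap, and the 0 mg/kg arrays ran from 9.91 to 10.12. It was higher by 0.23 (SE 0.04, limma adjusted p = 0.0144), and without replicate 2 of 500 mg/kg the adjusted p was 0.0621. On the left-out replicate 3 arrays, which carried the fat markers, it was 12.4 and 11.6.

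Cpt1a, which admits fatty acids to the mitochondrion, differed by -0.27 (SE 0.06, limma adjusted p = 0.019). Cyp4a3, a fatty acid hydroxylase, differed by 0.20 (SE 0.04, adjusted p = 0.0144). They were the only genes called among 35 measured PPAR alpha targets and genes of fatty acid oxidation, whose median was -0.04. Over all genes 0.205% were called higher and 0.554% lower. Amacr, a racemase for branched fatty acids and bile acid precursors, ran from 11.6 to 11.9 against 11.4 to 11.7 and was higher by 0.21 (SE 0.04, adjusted p = 0.00732). Lpcat3, which remodels phospholipids, was higher by 0.24 (SE 0.05, adjusted p = 0.0311). Outside fatty acid handling, Hao1, an oxidase of glycolate in peroxisomes, ran from 6.01 to 7.30 against 6.53 to 7.93. It fell by 0.74 (SE 0.16, adjusted p = 0.0311). Of 20 genes of fatty acid synthesis 0 were called, with 5 at an unadjusted p under 0.05, 4 higher and 1 lower. The shares of all genes at that p were 5.23% and 6.89%.

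**Figure D3:**
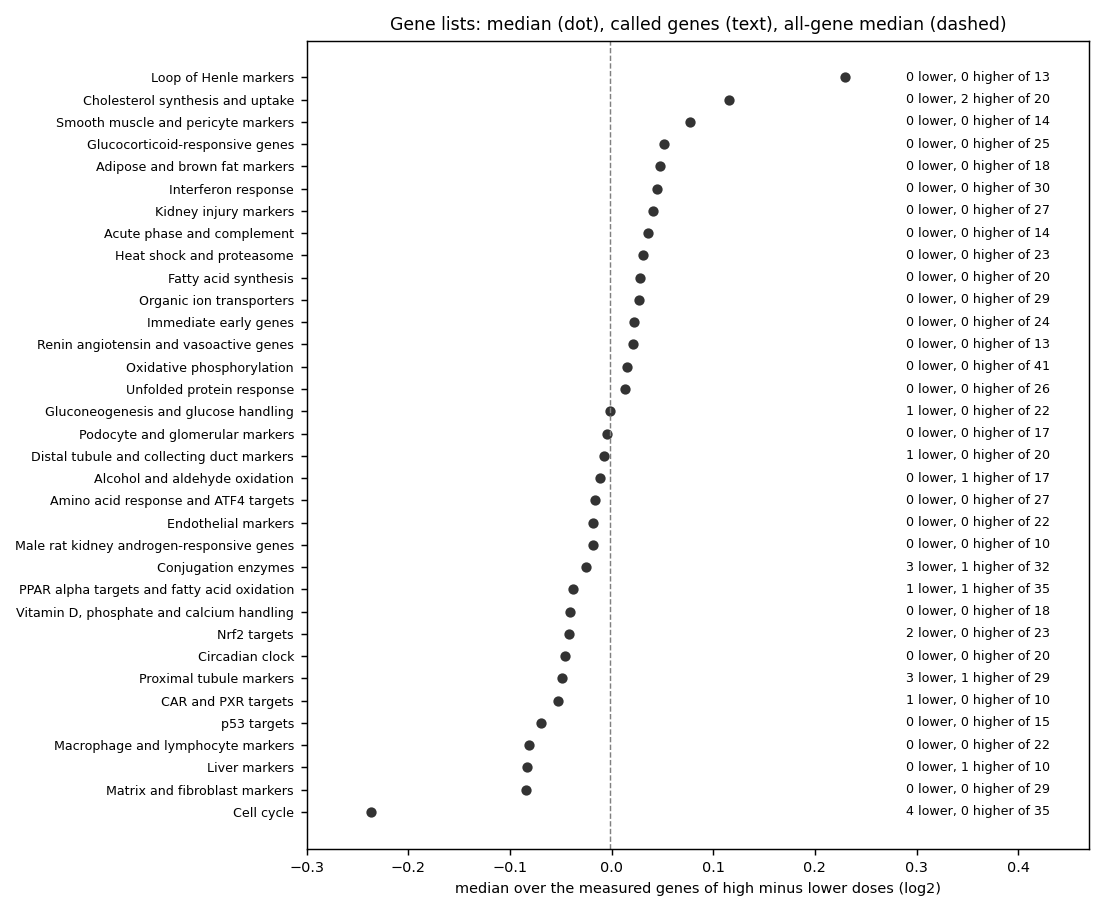
Dots give the median difference (high minus lower doses, log2, horizontal axis) of each gene list with at least 10 measured genes; text gives the called genes of each, and the dashed line is the median of all genes. The Cell cycle list lies lowest, at -0.24, and the loop of Henle markers highest, at 0.23 with 0 genes called.

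Proc, Dnase1 and Slc22a24 were among the other called genes with large differences. Proc, the zymogen of an anticoagulant protease, was at 8.27, 8.30 and 8.17 at 300 mg/kg and at 8.39, 8.58 and 8.26 at 500 mg/kg. The lower-dose arrays ran from 8.57 to 9.07 with a median of 8.81, and the 0 mg/kg arrays from 8.55 to 8.90. A single lower-dose array lay at or below the highest high-dose array, replicate 2 of 500 mg/kg. Proc fell by 0.51 (SE 0.07, limma adjusted p = 0.000903), was called in all 22 fits that left out 1 array, and differed from 0 mg/kg by -0.44 (adjusted p = 0.244). The left-out replicate 3 arrays were at 8.30 and 8.32.

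Dnase1, a nuclease that degrades free DNA, was at 11.35, 10.86 and 11.18 at 300 mg/kg and at 11.51, 11.45 and 11.89 at 500 mg/kg. The lower-dose arrays ran from 10.45 to 11.02 and the 0 mg/kg arrays from 10.32 to 11.00, so that replicate 2 of 300 mg/kg lay within both ranges and all 3 arrays at 500 mg/kg lay above them. It was higher by 0.62 (SE 0.11, limma adjusted p = 0.00732), and against 0 mg/kg by 0.67 (adjusted p = 0.4). The replicate 3 arrays read 11.25 and 11.45.

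Slc22a24, a carrier of organic anions, ran from 8.40 to 9.15 on the high-dose arrays and from 7.61 to 8.77 on the lower-dose arrays, with 7.55 to 9.17 at 0 mg/kg. It was higher by 0.66 (SE 0.15, limma adjusted p = 0.0331), while the replicate 3 arrays read 8.29 and 7.22. Slc16a7, a carrier of lactate and ketone bodies, was higher by 0.23 (SE 0.05, adjusted p = 0.0295). Its 0 mg/kg arrays ran from 10.24 to 10.81, and against them the difference was -0.09. Of 29 measured organic ion transporters on their list, 0 were called, against 0.759% of all genes. At an unadjusted p under 0.05, 4 were higher and 4 lower, against 5.23% and 6.89% of all genes.

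Mylk3, a myosin kinase known from heart muscle, had the largest fall of the called genes. It was at 5.06, 5.93 and 5.47 at 300 mg/kg and at 5.36, 5.34 and 5.22 at 500 mg/kg, against 5.54 to 7.16 on the lower-dose arrays with a median of 6.37. The 0 mg/kg arrays ran from 5.37 to 6.79 with a median of 5.49, lower than that of the lower-dose arrays. The difference was -0.96 (SE 0.20, limma adjusted p = 0.0242), and -0.46 against 0 mg/kg (adjusted p = 0.801). Tmem86a, an enzyme of ether lipid breakdown, ran from 8.58 to 9.60 against 9.03 to 10.01, with 9 lower-dose arrays at or below the highest high-dose array, and fell by 0.72 (SE 0.13, adjusted p = 0.0114).

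The remaining large differences were in Bmerb1, which fell by 0.52 (SE 0.11, limma adjusted p = 0.019), and in Tubb2b, a beta tubulin, which was higher by 0.49 (SE 0.12, adjusted p = 0.0428). The call of Tubb2b held in 8 of the 22 fits that left out 1 array. Coa8, an assembly factor of cytochrome c oxidase, was higher by 0.29, Cibar1 by 0.26, Mpnd by 0.21 and Gstz1, an enzyme of tyrosine breakdown, by 0.22. In those 22 fits Coa8 was called 18 times, Mpnd 8, Cibar1 7 and Gstz1 5, and without replicate 2 of 500 mg/kg none of these 4 was called. Of the 37 called genes followed by name through the alternative fits, 6 were called in all 22. Bhmt, which makes methionine from betaine, was called at 0.53, but 2 of the 6 high-dose arrays, at 6.37 and 6.29, lay below the lower-dose mean of 6.39. Hacd1 and Aars1 were lower and Mrps23 higher with no overlap between the groups, at -0.26, -0.19 and 0.13, and were picked out after their values were seen. With Akr1b8, Fdft1 and Acsl1 these made 6 called genes without overlap, among 7 such genes of all tested (0.0625%), 3 of them higher (0.0268%) and 4 lower (0.0357%). The other probe set of Hacd1 did not show the fall, at -0.01 (limma adjusted p = 0.973).

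Markers of tubule segments and of other cells were read for shifts in the makeup of the samples. Over all genes 0.554% were called lower and 0.205% higher. Of 29 proximal tubule markers, Acsm2 at -0.16, the regulator Hnf4a at -0.15 and the dicarboxylate carrier Slc13a3 at -0.27 were called lower and Cyp2e1 higher. The 2 other probe sets of Hnf4a were at -0.02 and -0.01 (limma adjusted p 0.959 and 0.985). The median of that list was -0.05, and its mean per array ran from 11.5 to 11.6 on the high-dose arrays, within the range of 11.4 to 11.6 on the lower-dose arrays. Of 20 distal tubule and collecting duct markers, the keratin Krt7 was called lower, at -0.19. Of 22 genes of gluconeogenesis and glucose handling, Pc, pyruvate carboxylase, was called lower at -0.34, but only 7 of the 22 fits that left out 1 array called it, and its adjusted p reached 0.213 without replicate 2 of 500 mg/kg. Over all alternatives its value ran from -0.47 to -0.05.

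The 13 measured loop of Henle markers had 0 called genes, but 11 were above 0, 6 had an unadjusted p under 0.05, all higher, and the median was 0.23. Of all genes 0.759% were called and 5.23% were higher at that p. Slc12a1, the salt carrier of the thick ascending limb, ran from 11.3 to 12.2 on the high-dose arrays, from 10.7 to 12.0 on the lower-dose arrays and from 10.9 to 12.4 at 0 mg/kg, a difference of 0.47 (SE 0.15, limma adjusted p = 0.159). The mean of these markers ran from 8.86 to 9.26, from 8.66 to 9.32 and from 8.65 to 9.56 in the same order, and against 0 mg/kg the list median was 0.01. With that mean as a covariate, added after the data were seen, 11 genes were called, 8 of them among the 85. Of the 37 genes followed by name, 6 were still called: Akr1b8, Proc, Ccnb2, Kif20a, Gstm1 and Acsl1. Ccnb2 was at -0.76 in that fit and the median of the cell cycle list at -0.27.

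**Figure D4:**
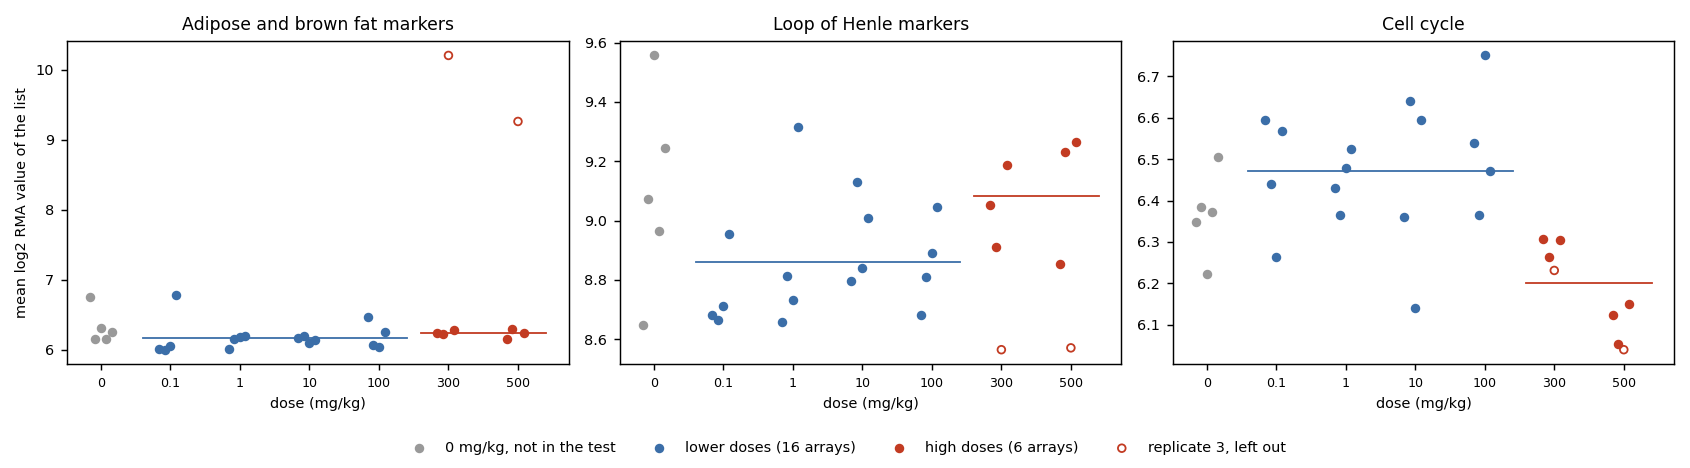
Mean log2 RMA value of 3 gene lists on each kidney array by dose in mg/kg, with group means as lines and the same symbols as in the plot of 8 genes. The left-out replicate 3 arrays stand at 10.2 and 9.26 for the fat markers, the loop of Henle means overlap between the other groups and are 8.56 and 8.57 on the left-out arrays, and the Cell cycle means of the 3 high-dose arrays at 500 mg/kg lie between 6.05 and 6.15, beside 1 lower-dose array at 6.14.

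Markers of immune, stromal and vessel cells had 0 called genes. Of all genes 0.759% were called, so 0 calls on lists of these sizes say little about these cells. Of 22 measured macrophage and lymphocyte markers, 19 were below 0 and 5 had an unadjusted p under 0.05, all lower, with a median of -0.08. Of 29 matrix and fibroblast markers 20 were below 0, with a median of -0.08. Smooth muscle and pericyte markers went the other way, with 10 of 14 above 0, 4 higher and 0 lower at an unadjusted p under 0.05, and a median of 0.08. Of 18 adipose markers 10 were above 0, 4 were higher and 0 lower at that p, and the median was 0.05. Of 22 endothelial markers 16 were below 0 and 2 were lower, and of 17 podocyte markers 2 were higher and 1 lower. Over all genes 5.23% were higher and 6.89% lower at that p. Without the 2 lower-dose arrays with the highest adipose means, replicate 4 of 0.1 mg/kg and replicate 1 of 100 mg/kg, 50 genes were called. The part of the immune, stromal, muscle and fat markers in the result was not tested.

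Lists of injury and stress responses had 0 called genes. Of all genes 0.759% were called, so 0 calls on lists of these sizes say little about the responses. At an unadjusted p under 0.05, 5.23% of all genes were higher and 6.89% lower. Of 27 measured kidney injury markers, 5 were higher and 2 lower at an unadjusted p under 0.05, with Clu, a secreted chaperone, at 0.28 (limma adjusted p = 0.154), and the list median was 0.04. The unfolded protein response had 0 called of 26, heat shock and proteasome genes 0 of 23, and p53 targets 0 of 15. Amino acid response and ATF4 targets had 0 of 27, with 16 below 0, 7 lower and 3 higher at an unadjusted p under 0.05, and a median of -0.02. The members of smallest p included both directions, with Phgdh, which begins serine synthesis, at -0.24 (adjusted p = 0.119), the stress protein Nupr1 at 0.89 (adjusted p = 0.124) and Asns, which makes asparagine, at 0.44 (adjusted p = 0.0895). The interferon response had 0 of 30, the circadian clock 0 of 20 and oxidative phosphorylation 0 of 41.

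RNA quality was compared between the groups on 4 measures. The 3′ minus 5′ difference of the GAPDH control probe sets averaged 0.0452 on the high-dose and 0.0899 on the lower-dose arrays (two-sided exact permutation test, p = 0.0343, adjusted over the 4 measures 0.137). With this difference as a covariate, added after the data were seen, 39 genes were called, 30 of them among the 85. For actin, the array median and the correlation with the median array, the exact permutation p was 0.263, 0.446 and 0.951.

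The next comparison was between the 2 high doses. Fitted as separate groups against the same 16 arrays, 300 mg/kg had 1 called gene (0.00893%), Proc, and 500 mg/kg had 38 (0.339%). A test of 500 minus 300 mg/kg called 0 genes with limma, and 327 (2.92%) had an unadjusted p under 0.05, so a difference between these doses was not shown for any gene. The smallest p belonged to Ugt2b35, a glucuronosyl transferase, at 12.4, 11.9 and 11.3 at 300 mg/kg and 10.9, 10.5 and 10.8 at 500 mg/kg. The groups did not overlap, and the difference was -1.10 (SE 0.27, adjusted p = 0.999). Zfp110 and Rps23 followed, at 0.29 and 0.18.

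The level of the called genes at each high dose is given as a description. Of the 62 called lower, 50 (80.6%) had a lower mean at 500 than at 300 mg/kg, against 41.3% of all genes tested. Of the 23 called higher, 16 (69.6%) had a higher mean at 500 mg/kg, against 58.6% of all genes. The difference of Ccnb2 from the lower-dose mean was -0.49 at 300 and -0.90 at 500 mg/kg, and that of Proc -0.59 and -0.42. Neither gene was called in the test of 500 minus 300 mg/kg.

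Whether the pooled lower doses differed among themselves was tested over 0.1, 1, 10 and 100 mg/kg. The limma F test called 0 genes, and 396 (3.54%) had an unadjusted p under 0.05. The smallest p belonged to Sparc, a matrix protein, with means of 11.3, 11.5, 11.2 and 11.1 in rising dose order (adjusted p = 0.303). Il7, a lymphocyte growth factor, and Tmem35b followed, both with an adjusted p of 0.992.

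The kidney differences were set against those of liver, using the 24 liver arrays at 0.1 to 500 mg/kg. In a joint fit of 10665 genes, liver high minus lower doses had 719 called genes (6.74%). The kidney and liver differences themselves differed in 117 genes (1.1%), 55 with the larger value in kidney and 62 with the larger value in liver, and 1385 had an unadjusted p under 0.05 (13%). With replicate 3 left out of liver as well, 99 genes differed between organs, 78 of them among the 117. Of the 80 genes called in kidney and tested in both organs, the 2 organs differed in 23 (28.8%). These 80 were chosen by their kidney difference, and the same kidney arrays enter the test between organs. A raised share follows from that choice and is not separate evidence of a difference between organs. The tests between organs of called genes given below share this limit. The spread in the joint fit came from both organs, and some kidney calls did not hold in it. The kidney difference there had a limma adjusted p of 0.161 for Fdft1, 0.273 for Amacr, 0.431 for Cpt1a and 0.102 for Cdk1. For Proc it was 2.4e-08, for Acsl1 0.00198 and for Ccnb2 0.0045. These genes are examples from both sides and not a count.

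Acsl1 and Papss2 were called higher in kidney and had negative values in liver. The differences were 0.23 in kidney and -0.15 in liver for Acsl1, and 0.25 and -0.27 for Papss2, and the tests between organs gave 0.37 (SE 0.06) and 0.52 (SE 0.08), both with a limma adjusted p of 0.000169. Proc was at -0.51 in kidney and -0.11 in liver, which differed by -0.39 (SE 0.07, adjusted p = 0.00234). Mylk3 was at -0.96 and 0.05, a difference of -1.0 (adjusted p = 0.0183). Gstm1 was at -0.55 and -0.04, a difference of -0.51 (adjusted p = 0.023).

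Other genes with large differences between organs were not called in kidney. The metallothioneins Mt2A and Mt1, which bind zinc and other metals, were at 0.12 and 0.14 in kidney and at -1.52 and -0.84 in liver, differing by 1.64 and 0.99 (limma adjusted p 0.0494 and 0.0276). Acly, which makes acetyl coenzyme A for lipid synthesis, was at -0.12 in kidney and 0.70 in liver, a difference of -0.82. Tspan8 was at 0.38 and -0.54, and Poteml2 at -0.59 and 0.66. For the cell-division genes a difference between organs was not shown: Cdk1 was at -0.56 in kidney and -0.41 in liver (adjusted p = 0.824), Cdkn3 at -0.74 and -0.89 (0.88) and Ccnb2 at -0.69 and -0.36 (0.466). The liver values were nearer 0 for Kif20a, at -0.64 and -0.17 (unadjusted p = 0.0104, adjusted 0.195), Cenpf, at -0.48 and -0.07 (0.00888 and 0.182), and Cdca3, at -0.57 and -0.20 (0.037 and 0.338). Hmmr was not in the joint fit.

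**Figure D5:**
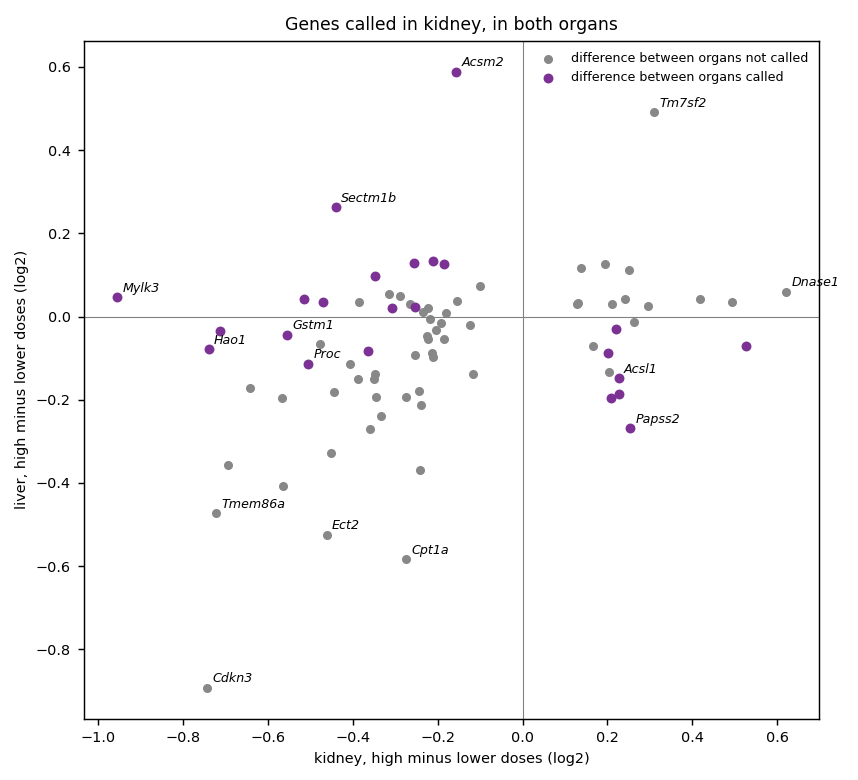
Each point is 1 of the 80 genes called in kidney and tested in both organs; the horizontal axis is the kidney and the vertical axis the liver difference (high minus lower doses, log2), and purple points are genes whose difference between organs was called. Mylk3, at -0.96 in kidney and 0.05 in liver, lies far to the left near the horizontal line at 0, while Cdkn3 is low in both organs.

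The 2 left-out replicate 3 arrays and the 5 arrays at 0 mg/kg were in neither group of the main comparison. They did enter the brightness filter and the choice of probe set. Their values are given as a description, because genes on the same 2 arrays are not independent of each other and the counts are no replication. Of the 62 genes called lower, 48 had a mean on the 2 left-out arrays below the mean at 0 mg/kg, against 50% of all genes tested. Of the 23 called higher, 13 had a mean above it, against 50%. For Ccnb2 this difference was -0.47, for Akr1b8 -0.62, for Proc -0.46 and for Dnase1 0.65. It was 0.09 for Fdft1 and -0.89 for Slc22a24. These 2 arrays carried the fat markers described above, and the part of those markers in the values was not tested.

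Genes with another probe set gave a further reading on the same arrays. Of the 85 called genes, 18 had 19 other probe sets past the filter, of which 18 had the same direction, the exception being that of Tacc3, and 11 also had an unadjusted p under 0.05. Those of Hacd1 and Hnf4a, counted in the same direction, lay near 0.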

How the data were processed

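The authors deposited log2 values made with RMA, per the submitters' processing notes, which give no version. The sources used here do not say whether the organs were normalized jointly. Values ran from 1.75 to 14.85 on 58 Affymetrix Rat Genome arrays of 31099 probe sets, 57 of them controls. GEO's platform annotation gave 20826 probe sets a single symbol, 436 several and 9780 none; only single symbols were used. Probe sets brighter than the 40th percentile of the array they were on, in 4 or more kidney arrays, were kept, and the brightest over the kidney arrays stood for its gene.

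Differences were tested with limma 3.58.1 in R 4.3.3 (linear fits, empirical Bayes moderation with an intensity trend, two-sided, Benjamini-Hochberg, adjusted p under 0.05), after the code was tested on simulated data. Exact permutation tests used SciPy 1.17.1. Named genes were the called genes with the 15 largest values in each direction that had all 6 high-dose arrays on one side of the lower-dose mean, up to 3 genes of smallest p from each list, and the leading genes of the other tests. The comparison, the arrays left out and the gene lists were chosen with earlier results of these data known. The labels name no batch and tie no kidney to a liver; samples are called biological replicates. Deviations from the dose means had a mean correlation of 0.0433 over 51 pairs of kidneys sharing a replicate number, 15 of them over 0.1. Over 150 other pairs it was -0.0147, with 21 over 0.1. Same-number pairs were thus somewhat more alike, but the labels do not say what the numbers stand for. The main fit did not use them, and this check does not settle whether it should. Replicate 3 was in the lower-dose group only. With a replicate block 57 genes were called, 50 of them among the 85. Alternatives covered filters, probe sets, variance moderation, normalization, the arrays in each group and each array left out. The number of arrays limits the precision.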

Additional observations from a re-analysis of the deposited data

Results flagged for a closer look

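A few single arrays stood apart from the rest of their dose group by more than a gap test at the 95% level allows. 188 groups of named genes and of the adipose marker mean were examined and 11 were past it, where chance alone gives about 1 in 20. That count is near the chance share, so the gene values are listed only as a description. The 11 include the adipose marker means of the 2 arrays already left out. The adipose marker mean was 10.2 on replicate 3 of 300 mg/kg (next array 6.28), 9.26 on replicate 3 of 500 mg/kg (next 6.29), 6.77 on replicate 4 of 0.1 mg/kg (next 6.05) and 6.75 on replicate 1 of 0 mg/kg (next 6.3). Cdca3 was at 7.12 on replicate 5 of 0 mg/kg (next 6.8) and at 6.82 on replicate 2 of 1 mg/kg (next 7.15). Cdkn3 was at 6.41 on replicate 3 of 0.1 mg/kg (next 7.07). Gstz1 was at 9.78 on replicate 3 of 1 mg/kg (next 9.68), and Slc22a24 at 7.55 on replicate 1 of 0 mg/kg (next 8.72). Among the 6 high-dose arrays, Fdft1 was lowest at 8.96 on replicate 1 of 500 mg/kg (next 9.01) and Hmmr at 4.4 on replicate 2 of 500 mg/kg (next 4.82).

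Other genes were noted because the high minus lower difference itself differed between kidney and liver (limma adjusted p under 0.05). Those also called in kidney had been chosen on the same kidney arrays. The kidney value exceeded the liver value by 1.64 for Mt2A, 0.99 for Mt1, 0.92 for Tspan8, 0.52 for Papss2, 0.41 for Slc16a7, 0.4 for Amacr, 0.37 for Acsl1 and 0.25 for Gstz1. The kidney minus liver value was negative for Poteml2 (-1.25), Mylk3 (-1.0), Acly (-0.82), Cyp2f4 (-0.68), Hao1 (-0.66), Bmerb1 (-0.56), Gstm1 (-0.51) and Proc (-0.39).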

How the results depend on the processing

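The 85 kidney calls were 40 without the intensity trend, 226 with array weights, 11 with a 1.5-fold minimum, 155 with replicate 3 added, 1 with only 300 mg/kg and 37 with only 500 mg/kg. They were 0 with 0 mg/kg in place of the lower doses, 29 with it added, 139 with dose means over all 29 kidney arrays and 144 with dose as a random block; after seeing the data, 50 without the 2 arrays of highest adipose means, 11 with the loop of Henle mean and 39 with the GAPDH difference as covariates. Leaving out each array gave 10 to 144: 10, 25 and 34 without replicates 2, 4 and 1 of 500 mg/kg, 36 without replicate 4 of 300, 52 without replicate 3 of 0.1, 138 without replicate 4 of 1 and 144 without replicate 4 of 100 mg/kg. With a replicate block 57 were called, 50 of them among the 85; the 117 organ differences became 191 with a random block, 276 with array weights and 19 with a 1.5-fold minimum, and 53 to 168 with each array left out (53, 71 and 74 without kidney replicates 2 and 4 of 500 and 4 of 300 mg/kg, 67 without liver replicate 1 of 500). 500 minus 300 mg/kg gave 0 to 1, the 1 without replicate 4 of 300 mg/kg, and the lower doses 0 to 0. Against 0 mg/kg these differences changed sign or, for Por, came to 0: Cyp2j4 -5e-04, Fga -0.016, Kcnj1 -0.12, Nfe2l2 0.01, Papss2 -0.036, Por 0, Ptger3 -0.062, Ptpro 0.0404, Slc16a7 -0.086, Slc22a6 0.077, Slc34a3 0.19, Slc5a2 0.0104 and Timp3 0.018. The causes were not tested.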
